A study of Mus musculus with 8 samples.

Results

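Interferon-response and nucleic acid sensing genes were examined in induced germinal center B cells (iGBs) with and without PRMT5, an enzyme that adds symmetric dimethyl groups to arginines of proteins, including proteins of the splicing machinery. The set holds 40 genes of 39017 in the deposited table, listed by gene symbol with earlier results of these data known. The comparison asked whether B cells with altered splicing also show an interferon state. All 40 symbols matched 1 gene each, and all 40 were among the 16250 genes tested, those whose normalized count averaged 10 or more over the 8 libraries.

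Cells carry sensors that recognise double-stranded RNA or cytosolic DNA, such as those that arise in viral infection, and pass the signal through adaptor proteins to transcription factors that switch on interferon genes. Secreted interferon acts through its receptor and the JAK and STAT proteins to induce interferon-stimulated genes, whose products block viral replication, edit or degrade RNA, or tag proteins. B cells express many of these genes without infection, and several sensors are themselves interferon-stimulated.

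RNA-seq was done on iGBs grown from splenic B cells of C57BL6/J mice on 40LB feeder cells, which are fibroblasts that express CD40L and BAFF, with IL-4 at 1 ng/mL, and collected at day 4. Prmt5-null iGBs came from 4 Prmt5 F/F Cγ1-cre mice (PRMT5-10617 and PRMT5-10618, then PRMT5-10770 and PRMT5-10771) and controls from 4 Cγ1-cre mice (CTRL-10650 and CTRL-10370, then CTRL-10596 and CTRL-10597), so that both genotypes carried the Cre, and each library came from 1 mouse. Values below are normalized counts in this order of mice. The Cγ1-cre acts once B cells are activated, and the feeder cells were separated from the B cells by elutriation.

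Prmt5 itself had normalized counts of 1291, 1994, 1060.3 and 1808 in Prmt5-null libraries and 13088, 11084, 11657 and 11267 in control libraries, a log2 fold change of −2.98 ± 0.17 (SE). Libraries held 36731721 to 50366174 reads on genes. All 8 B cell markers listed were expressed in both genotypes, and 1 of them, Cd79a, a chain of the B cell receptor complex, was called lower in Prmt5-null, with 6939 to 8809 against 12214 to 14257 normalized counts (log2 fold change −0.74, limma, adjusted p = 3.3e-04). Of 8 T cell markers, Cd3e had no read in any library, the kinase Lck was called lower (304 to 462 against 660 to 780 normalized counts, log2 fold change −0.94, limma, adjusted p = 8.5e-04), and the other 6 had at most 25 reads in a library. Of 10 myeloid and dendritic markers in the table, S100a8 and S100a9 had no read in any library and the others had at most 89, and none of the 3 tested was called. Of 15 fibroblast markers, 13 were tested, all 13 had log2 fold changes above 0 and 3 passed the call, and their summed normalized counts were 7945 to 13625 in Prmt5-null and 5283 to 9150 in control libraries. The part of feeder cells in the results below was not tested. In bulk RNA, fewer cells of a type and less RNA per cell cannot be told apart.

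Promoter sequences are shown first for the 3 members that passed the call (Gbp2 and Gbp3, which rose, and Herc6, which fell) and for Samhd1 and Adar, the members of highest level among the others with a motif match. They are RefSeq sequences of build GRCm38.p6 from 250 bases before to 50 bases after the annotated start, on the strand of the gene, and capitals mark matches to either motif searched. The first motif, the core of the interferon-stimulated response element, was GAAA, any 2 bases and GAAA, read on both strands (TTTC, any 2 bases and TTTC on the other). The second, the core of the gamma-activated site bound by STAT proteins, was TTC, any 3 bases and GAA, which reads the same on both strands. The 2 motifs may overlap each other.

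The Gbp2 promoter (chr3:142620413-142620712, + strand) and the Gbp3 promoter (chr3:142559794-142560093, + strand, 1 of 2 entries for this gene) hold the first motif in its reverse orientation, once in Gbp2 and as 2 overlapping matches in Gbp3. The Herc6 promoter (chr6:57580742-57581041, + strand) holds neither motif in this window. The Samhd1 promoter (chr2:157135047-157135346, − strand) and the Adar promoter (chr3:89730468-89730767, + strand, 1 of 3 entries for this gene) hold the second motif once each. Where a gene had several entries, the one with the most matches is shown. The other entries of Gbp3 and Adar held neither motif.
Gbp2: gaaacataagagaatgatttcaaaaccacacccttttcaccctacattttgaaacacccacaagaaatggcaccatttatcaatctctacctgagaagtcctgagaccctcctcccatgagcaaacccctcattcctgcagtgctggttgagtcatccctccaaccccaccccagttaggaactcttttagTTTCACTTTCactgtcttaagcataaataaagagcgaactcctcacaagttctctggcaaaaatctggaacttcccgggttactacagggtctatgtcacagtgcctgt
Gbp3: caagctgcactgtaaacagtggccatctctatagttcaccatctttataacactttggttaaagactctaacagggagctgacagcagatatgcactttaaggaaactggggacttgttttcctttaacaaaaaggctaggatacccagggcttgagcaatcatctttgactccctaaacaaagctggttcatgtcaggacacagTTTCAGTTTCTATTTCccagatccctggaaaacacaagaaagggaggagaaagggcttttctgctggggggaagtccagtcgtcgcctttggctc
Herc6: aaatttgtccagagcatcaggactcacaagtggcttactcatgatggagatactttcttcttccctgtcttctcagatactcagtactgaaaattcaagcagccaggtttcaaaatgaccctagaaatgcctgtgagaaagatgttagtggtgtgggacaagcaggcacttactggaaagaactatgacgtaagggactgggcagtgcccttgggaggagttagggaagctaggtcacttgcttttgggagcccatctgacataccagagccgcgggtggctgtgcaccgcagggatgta
Samhd1: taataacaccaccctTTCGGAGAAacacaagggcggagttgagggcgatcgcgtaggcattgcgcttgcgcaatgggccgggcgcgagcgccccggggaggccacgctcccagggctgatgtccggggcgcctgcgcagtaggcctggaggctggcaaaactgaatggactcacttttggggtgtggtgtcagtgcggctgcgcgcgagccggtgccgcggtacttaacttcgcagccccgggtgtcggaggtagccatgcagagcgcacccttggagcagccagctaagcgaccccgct
Adar: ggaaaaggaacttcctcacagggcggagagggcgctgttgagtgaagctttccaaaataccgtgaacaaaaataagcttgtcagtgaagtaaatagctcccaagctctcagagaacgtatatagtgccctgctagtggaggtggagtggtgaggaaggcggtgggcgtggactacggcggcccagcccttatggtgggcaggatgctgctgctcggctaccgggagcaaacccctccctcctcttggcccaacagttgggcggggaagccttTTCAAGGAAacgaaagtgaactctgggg

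Promoter sequences were at hand for 30 of the 40 members; the other 10 were Dhx58, Mx1, Mx2, Oas2, Parp14, Parp9, Rtp4, Tmem173, Usp18 and Zbp1. The first motif was found in 13 of 30 members (43.3%), beside 3.99% of the 27025 genes with a promoter in the same table. The second was found in 9 of 30 members (30%), beside 9.55% of genes. Upstream of Isg15 lie 3 overlapping matches of the first motif, which begin at positions −78, −72 and −66 from the start, and Ifit1 and Ifit3 hold 2 matches each. A match is a description of the sequence and not a measured binding site.

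Across the 40 members, 3 passed the call, which asked for 1.5-fold or more and for an adjusted p under 0.05 (limma, Benjamini-Hochberg over all genes tested), which is 7.5% beside 6.48% of all genes tested. Gbp2 and Gbp3 were higher in Prmt5-null iGBs, which is 5% of members beside 3.49% of genes called higher, and Herc6 was lower, which is 2.5% beside 2.99% called lower. With no threshold on the fold, 7 members passed (17.5%, beside 13.8% of genes), these 3 and Isg20, Ifi35, Adar and Samhd1, all 4 of them lower. That is 2 members higher (5%, beside 6.51% of genes) and 5 lower (12.5%, beside 7.33%). The median log2 fold change of the members was −0.18, beside 0.00 for all genes tested, and 26 of 40 members (65%) were below 0, beside 49.6% of genes. Libraries of the genotypes did not overlap for 9 members (22.5%, beside 19.8% of genes), 2 higher in Prmt5-null (beside 9.67% of genes) and 7 lower (17.5%, beside 10.2%).

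The 95% intervals give the size of rise that these data leave room for. The upper bound lay below a 1.5-fold rise for 29 members (72.5%, beside 75.4% of genes). It lay below a 2-fold rise for 37 members (92.5%, beside 88.9% of genes). The 3 members whose interval reached a 2-fold rise were Gbp2, Gbp3 and Ifit3.

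**Figure D1:**
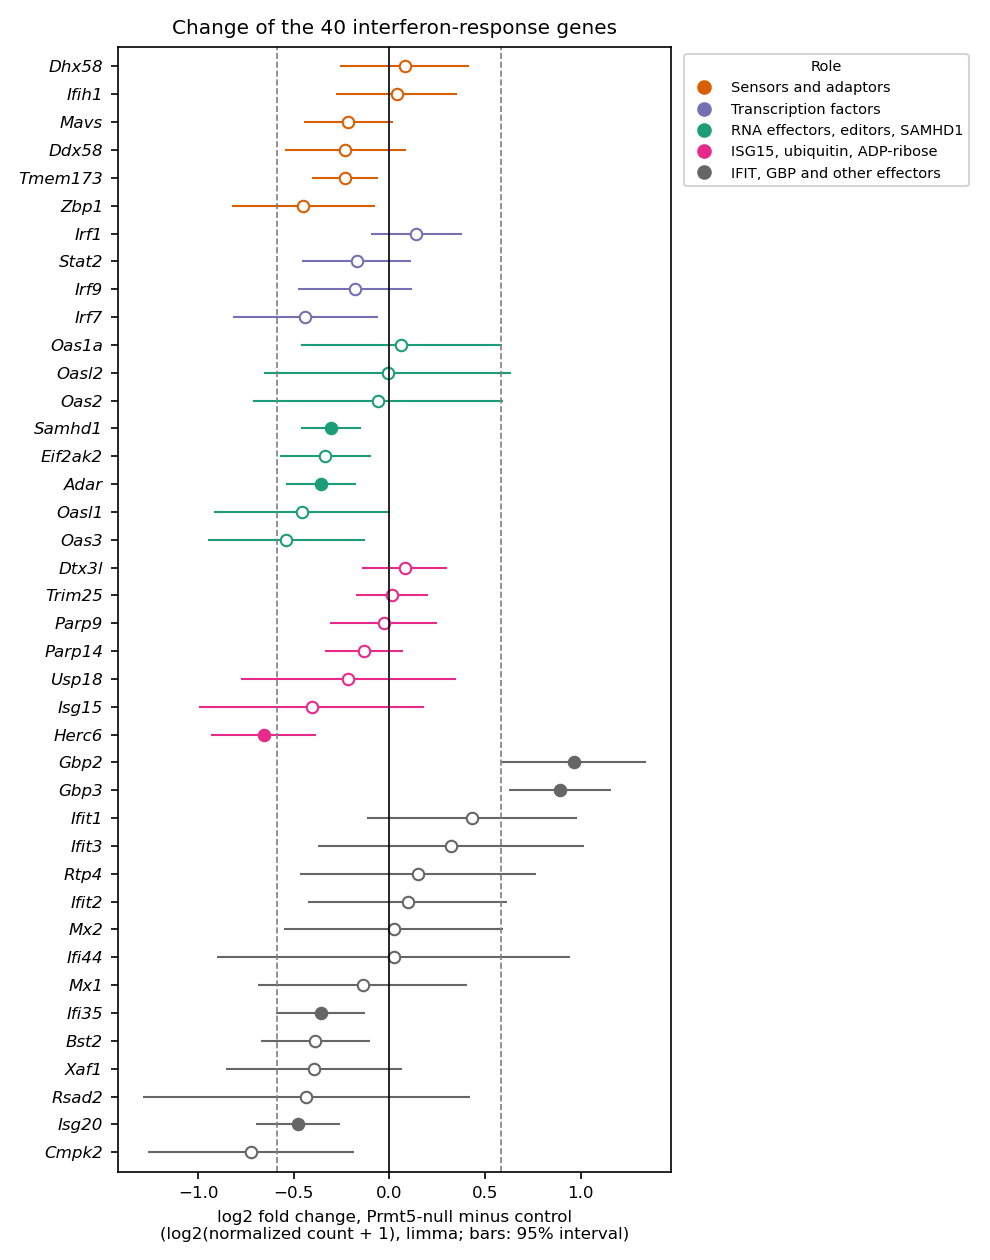
Log2 fold changes (x axis, Prmt5-null minus control) of the 40 members, grouped by role, with limma 95% intervals as bars and filled points where the adjusted p was below 0.05. Dashed lines mark 1.5-fold in each direction; Gbp2 and Gbp3 lie to the right of them, and Herc6 to the left, as does Cmpk2, which did not pass.

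The double-stranded RNA sensors did not pass the test. Ifih1 encodes MDA5, which senses long double-stranded RNA, and had 419, 454, 534 and 497 in Prmt5-null and 455, 611, 423 and 389 in control libraries. The groups overlapped, with control library CTRL-10370 highest of all, and the log2 fold change was 0.04 (95% interval −0.28 to 0.35, adjusted p = 0.897). Ddx58, which encodes RIG-I, the sensor of RNA with a 5′ triphosphate, had 1909, 2907, 2529 and 2775 against 2764, 3629.5, 3035 and 2424. Its lowest value was that of Prmt5-null library PRMT5-10617 and its highest that of control library CTRL-10370, with a log2 fold change of −0.23 (−0.55 to 0.08, adjusted p = 0.319). Dhx58, the related helicase LGP2 that tunes both sensors, had 3236, 3592, 4386 and 3395 against 3043, 4925, 3117 and 2973. Control library CTRL-10370 stood above all other libraries, and the log2 fold change was 0.08 (−0.26 to 0.42, adjusted p = 0.776).

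Mavs, the mitochondrial adaptor of these RNA sensors, had 1166, 1137, 946 and 1134 in Prmt5-null and 1511, 1157, 1257 and 1177 in control libraries. Only Prmt5-null library PRMT5-10617 exceeded any control value, and the log2 fold change of −0.22 (−0.45 to 0.02) had an adjusted p of 0.204. Zbp1, a sensor of nucleic acids in the left-handed Z form, had 177, 222, 194 and 254 against 276, 382, 278 and 229.9. Its groups overlapped through Prmt5-null library PRMT5-10771 and control library CTRL-10597, with a log2 fold change of −0.45 (−0.83 to −0.07, adjusted p = 0.107). Tmem173 encodes STING, the adaptor of the cytosolic DNA sensor, and had 8158, 7253, 7309 and 7758 against 9746, 8013, 8836 and 9226. Only control library CTRL-10370 fell within the Prmt5-null range, and the log2 fold change of −0.23 (−0.40 to −0.06) had an adjusted p of 0.0743. For all 6 sensors and adaptors the upper bound of the interval was below a 1.5-fold rise.

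Per kilobase of exonic length, Tmem173 had the highest level of all 40 members, at 3267 normalized counts per kb in control and 2779.8 in Prmt5-null libraries (means of 4). Dhx58 followed among the sensors with 1074 and 1116, then Ddx58 with 420.3 and 359 and Mavs with 381 and 328, whose libraries overlap per kb. Zbp1 and Ifih1 were lowest of the 6, at 82.6 and 57.5 in control libraries and at 59.9 and 58.3, a difference within their spread, in Prmt5-null libraries.

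Of the 4 transcription factors of the response, none passed the test. Irf7, the factor that amplifies interferon production and is itself interferon-stimulated, had 497, 456, 697 and 584 in Prmt5-null and 701, 1037, 726 and 595 in control libraries. The groups overlapped only through Prmt5-null library PRMT5-10770, and the log2 fold change was −0.44 (−0.82 to −0.06, adjusted p = 0.115). Irf9 and Stat2 are parts of the complex that binds the interferon-stimulated response element. Irf9 had 1978, 2678, 2584 and 2556 against 2283, 3452, 3008 and 2427, and Stat2 had 1542, 1987, 1407 and 1912 against 1619.9, 2005, 2263 and 1805. Both overlapped between the genotypes, with log2 fold changes of −0.18 (−0.48 to 0.12) and −0.17 (−0.46 to 0.11). Irf1, a factor induced through the gamma-activated site, had 2115, 2231, 2796 and 2364 against 2406, 2335, 2028 and 1857. It also overlapped, with its highest value in Prmt5-null library PRMT5-10770 and a log2 fold change of 0.14 (−0.10 to 0.38, adjusted p = 0.428).

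Among the 8 effectors and editors that act on RNA or nucleotides, 2 fell past the adjusted p, beside 7.33% of genes. None rose past it, beside 6.51% of genes. Adar encodes ADAR1, which edits adenosine to inosine in double-stranded RNA and keeps cellular RNA from triggering MDA5. It had 4859, 5947, 4775 and 5608 in Prmt5-null and 6488, 6866, 6681 and 7044 in control libraries, with every Prmt5-null library below every control library. Its log2 fold change was −0.36 ± 0.08 (SE, limma, adjusted p = 0.0148), which is less than 1.5-fold. Samhd1, the enzyme that breaks down deoxynucleotides and limits DNA synthesis by viruses, had 7423, 6934, 6467 and 7132 against 9032, 8096, 8588 and 8807. Again the groups did not overlap, and the log2 fold change was −0.31 ± 0.07 (limma, adjusted p = 0.0152). On GRCm38, Adar lies at chr3:89715022-89753446 and Samhd1 at chr2:157097533-157135265. Adar shares 1365 of its 8118 exonic bases with Chrnb2 on the opposite strand, which had 71.4 to 77.6 normalized counts in Prmt5-null and 56.0 to 87.8 in control libraries. In all, 15 of the 40 members share exonic bases with another annotated gene, 11 of them on the opposite strand, the library kit was stranded, and the strand setting of the counting is not given in the sources used here.

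The other 6 of this role did not pass. Oas3, one of the synthetases that make the second messenger of RNase L, had 389, 482, 567 and 535 in Prmt5-null and 673, 1076, 610.1 and 574 in control libraries. The groups did not overlap, and control library CTRL-10370 was far above the rest, with a log2 fold change of −0.54 (−0.95 to −0.13, adjusted p = 0.0798). Eif2ak2, the kinase PKR that halts translation on binding double-stranded RNA, had 3033, 3506, 3099 and 3332 against 3414, 5054, 3921 and 4123. Its groups overlapped through Prmt5-null library PRMT5-10618 and control library CTRL-10650, with a log2 fold change of −0.34 and an adjusted p of 0.0612. The log2 fold changes of Oas1a, Oas2, Oasl1 and Oasl2 were 0.06, −0.06, −0.46 and −0.01.

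In the group of ISG15, ubiquitin and ADP-ribose enzymes, 1 of 7 members passed the call, beside 6.48% of genes. Herc6 encodes the ligase that attaches the ubiquitin-like protein ISG15 to its targets in mice, and had 597, 715, 809 and 713 in Prmt5-null and 947, 1344, 1147 and 1045 in control libraries. All Prmt5-null libraries were below all control libraries. The means were 708 ± 86.8 and 1121 ± 170.02 (SD, n = 4 each), 1.58-fold lower in Prmt5-null, with a log2 fold change of −0.66 ± 0.13 (limma, adjusted p = 0.00515). The change fell below 1.5-fold without Prmt5-null library PRMT5-10617 (−0.58) or without control library CTRL-10370 (−0.57), which ended the call. Herc6 lies at chr6:57581000-57664632 and shares 1269 of its 9292 exonic bases with the annotated gene Gm45193 on the same strand.

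Isg15 itself had 126, 91.9, 192 and 153 in Prmt5-null and 241, 218, 185 and 109 in control libraries. The groups overlapped widely, and its log2 fold change was −0.41 (−0.99 to 0.18, adjusted p = 0.347). Usp18, which removes ISG15 from proteins and dampens receptor signalling, had a log2 fold change of −0.21 (−0.78 to 0.35). Trim25, Parp14, Parp9 and Dtx3l, enzymes of ubiquitin and ADP-ribose transfer, had log2 fold changes of 0.01, −0.13, −0.03 and 0.08. For these 4 genes the whole interval lay within 1.5-fold in either direction.

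**Figure D2:**
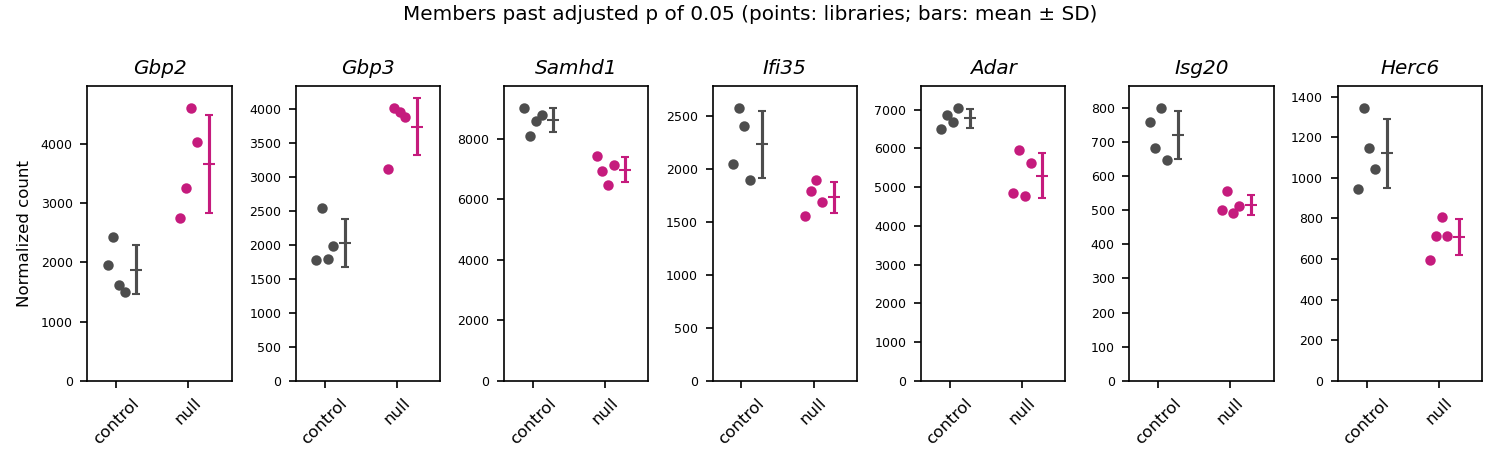
Normalized counts (y axis, from 0) of the 7 members with an adjusted p below 0.05, in 4 control and 4 Prmt5-null libraries, with the mean and SD beside the points. Gbp2 and Gbp3 were higher and the other 5 lower in Prmt5-null, with no overlap between the genotypes in any of the 7.

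Gbp2 and Gbp3 were the members that rose. They encode guanylate-binding proteins, interferon-induced GTPases that attack the membranes around intracellular pathogens. Gbp2 (chr3:142620602-142638008) had 2748, 3261, 4608 and 4039 in Prmt5-null and 1954, 2421, 1612 and 1506 in control libraries. Every Prmt5-null library exceeded every control library, the closest being Prmt5-null library PRMT5-10617 and control library CTRL-10370. The means were 3664 ± 823 and 1873 ± 412 (SD, n = 4 each), 1.96-fold higher in Prmt5-null, with a log2 fold change of 0.96 ± 0.17 (limma, adjusted p = 0.00369).

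Gbp3 (chr3:142560026-142573209) had 3111, 4012, 3946 and 3875 in Prmt5-null and 1783, 2536, 1796 and 1977 in control libraries. It showed the same order at the edges, with Prmt5-null library PRMT5-10617 lowest of its group and control library CTRL-10370 highest of its own. The means were 3736 ± 420.5 and 2023 ± 354, 1.85-fold higher in Prmt5-null, with a log2 fold change of 0.89 ± 0.12 (limma, adjusted p = 6.8e-04). The exact permutation p over the 8 libraries was 0.0286 for each of the 7 members past the adjusted p, which is the smallest that 4 against 4 libraries can give.

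Gbp2 and Gbp3 lie on chromosome 3 on either side of Gbp5, a gene outside the 40 that was on a list of other interferon-stimulated genes. Gbp5 had 335, 229, 477 and 347 in Prmt5-null and 179, 193, 176 and 173 in control libraries. It also did not overlap, and its log2 fold change was 0.90 ± 0.19 (limma, adjusted p = 0.00869). Gbp2b, a gene chosen after its values were seen, had 758, 885, 1402 and 1005 against 502, 802, 519 and 630.4, with a log2 fold change of 0.71 (adjusted p = 0.0288) and an overlap through Prmt5-null library PRMT5-10617 and control library CTRL-10370. Guanylate-binding protein genes are similar in sequence, and only uniquely mapped reads were counted, so reads that match several of them are missing from these values and the level of each is uncertain to that extent. Of the other listed genes of the family, none passed the test: Gbp7, also on chromosome 3, had a log2 fold change of 0.24 (adjusted p = 0.499), and Gbp4, Gbp6 and Gbp9, on chromosome 5, had 0.18, −0.05 and −0.13.

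Of the other 13 effectors, 2 fell past the adjusted p (beside 7.33% of genes) and none rose past it (beside 6.51%). Isg20, an exonuclease that degrades single-stranded RNA, had 502, 557, 492 and 513 in Prmt5-null and 757, 681, 800.1 and 646 in control libraries. The groups were clearly apart, with a log2 fold change of −0.48 ± 0.10 (limma, adjusted p = 0.0086). Ifi35, an interferon-induced leucine zipper protein, had 1554, 1792, 1893 and 1687 against 2051, 2577, 2405 and 1896. Its groups nearly met, at Prmt5-null library PRMT5-10770 and control library CTRL-10597, and the log2 fold change was −0.36 ± 0.11 (limma, adjusted p = 0.0441). Its adjusted p ranged from 0.0153 to 0.123 over the alternatives, and was above 0.05 when any library other than PRMT5-10770 or CTRL-10597 was left out.

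Ifit1, Ifit2 and Ifit3, which bind viral RNA and block its translation, did not pass the test. Ifit1 had 249, 178, 335 and 265 in Prmt5-null and 218, 268, 172 and 117 in control libraries, with overlapping groups and a log2 fold change of 0.43 (−0.11 to 0.98, adjusted p = 0.279). Ifit3 had 157, 107, 321 and 205 against 152, 225, 139 and 96.0, and its highest value was that of Prmt5-null library PRMT5-10770. The log2 fold changes of Ifit2 and Ifit3 were 0.09 (−0.42 to 0.61) and 0.32 (−0.38 to 1.02). The intervals of Ifit1 and Ifit3 reach from a fall to about a 2-fold rise, so that neither a moderate rise nor its absence was shown at this spread.

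Cmpk2, a nucleotide kinase beside Rsad2 in the genome, had the lowest log2 fold change of the 40 members, −0.72 (−1.26 to −0.19), from 90.7, 136, 119 and 128 in Prmt5-null and 155, 327, 197 and 141 in control libraries. Its groups did not overlap but control library CTRL-10370 was far above the other controls, and the adjusted p was 0.0731 by limma, while DESeq2 called the gene. Rsad2, which encodes viperin, had the lowest mean normalized count of the members, with 21.3, 55.1, 64.9 and 56.1 against 34.5, 109.7, 58.2 and 66.4. Ifi44, of unsettled function, was next lowest, with 33.3, 28.6, 108 and 82.2 against 82.9, 65.1, 35.8 and 41.5. Both overlapped, and their intervals were wide, −1.29 to 0.42 and −0.90 to 0.94 on the log2 scale. They were also the lowest per kilobase of exonic length, at 15.5 and 9.19 normalized counts per kb in control libraries. Bst2, Xaf1, Mx1, Mx2 and Rtp4 had log2 fold changes of −0.39, −0.39, −0.14, 0.02 and 0.15, and none passed.

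Single libraries stood apart across the members. For 25 of the 40 members the highest of all 8 values was that of control library CTRL-10370, and for 16 the lowest was that of Prmt5-null library PRMT5-10617. The median log2 deviation of the members from their means over 8 libraries was 0.47 in control library CTRL-10370, and −0.17 to 0.09 in the other 3 controls. It was −0.28 in Prmt5-null library PRMT5-10617 and −0.10 to 0.05 in the other 3 Prmt5-null libraries. The median SD of the members on the log2 scale was 0.29 in control libraries, beside 0.16 for all genes tested, and 0.23 beside 0.20 in Prmt5-null libraries.

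The median log2 fold change of the members shrank from −0.18 to −0.08 without control library CTRL-10370 and to −0.06 without Prmt5-null library PRMT5-10617. Gbp2 and Gbp3 passed the call whichever library was left out. Control library CTRL-10370 also had the lowest sum of fibroblast markers, 5283 normalized counts, and Prmt5-null library PRMT5-10617 the highest, 13625. The sums of myeloid and dendritic markers were 63.0, 101, 169 and 144 normalized counts in Prmt5-null and 63.5, 160, 60.9 and 56.9 in control libraries. Control library CTRL-10370 was thus highest of its group in this sum, and PRMT5-10617 lowest of its own. The part of these sums in the level of the members was not tested. The study used 2 experiments with 2 mice of each genotype in each, but no label ties a mouse to an experiment, so values within an experiment could not be given.

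**Figure D3:**
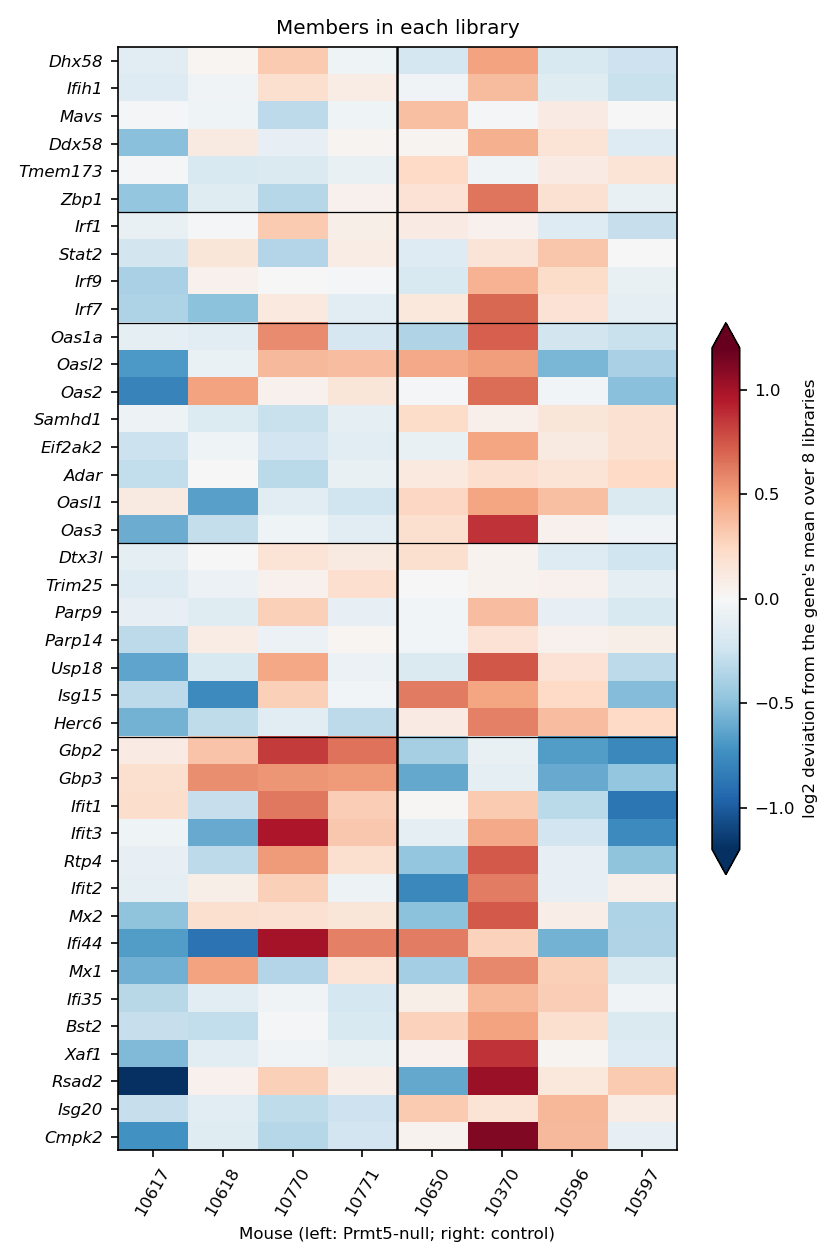
Log2 deviation of each member (rows, grouped by role) from its mean over the 8 libraries, in each library (columns, Prmt5-null left, control right); red is above the mean and blue below. The column of control library CTRL-10370 is the highest for 25 of 40 members.

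**Figure D4:**
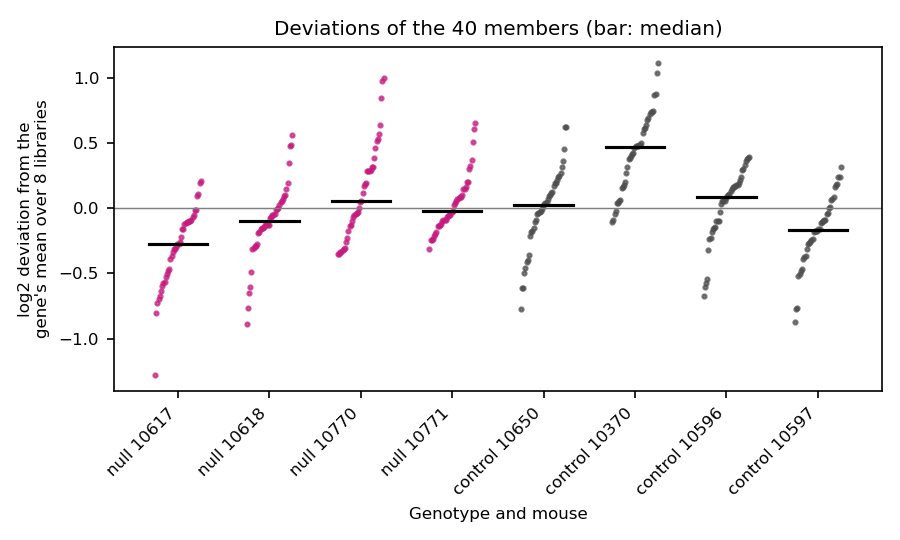
The same deviations as points, 40 for each library (x axis), with the median as a bar. The bar of control library CTRL-10370 is at 0.47, and that of Prmt5-null library PRMT5-10617 at −0.28.

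Interferon genes themselves were near the limit of detection. Of 21 symbols listed, 19 were in the table; 12 of these had no read in any library, where a count of 0 allows up to 3 reads, and none had a mean of 10. Ifng, the type II interferon, had the most reads of any, 6 in 1 library. Its normalized counts were 1.85, 0, 6.49 and 3.74 in Prmt5-null and 0, 1.78, 3.58 and 0 in control libraries. Ifnb1, a type I interferon, had 0, 0, 0 and 0 against 0, 0, 1.79 and 0. No other ligand exceeded 4 reads in any library, and no fold is given at this depth.

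Of the receptors and JAK and STAT genes, 11 were tested and none passed the call, beside 6.48% of genes. Ifnar1 and Ifnar2, which form the receptor of type I interferons, had log2 fold changes of −0.08 (−0.26 to 0.10) and 0.05 (−0.13 to 0.24). For these 2 genes a change of 1.5-fold in either direction lies outside the interval.

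Among 18 tested adaptors and kinases downstream of the sensors, 1 passed the call, beside 6.48% of genes. Ticam1, the adaptor TRIF of the endosomal RNA receptor TLR3, had 833, 962, 631 and 847 in Prmt5-null and 1295, 1154, 1396 and 1093 in control libraries. All Prmt5-null libraries were lower, with a log2 fold change of −0.60 ± 0.13 (limma, adjusted p = 0.00993), and the change was below 1.5-fold without Prmt5-null library PRMT5-10770 or without control library CTRL-10650 or CTRL-10596 (−0.58 to −0.48). Mb21d1, which encodes the DNA sensor cGAS, had 35.2, 36.8, 45.4 and 68.2 against 95.9, 75.8, 81.5 and 61.6. Its groups overlapped through Prmt5-null library PRMT5-10771 and control library CTRL-10597, and the log2 fold change of −0.78 (−1.32 to −0.24) had an adjusted p of 0.0557 by limma and 0.0306 by DESeq2. Irf3, the factor that STING and MAVS activate, had 2258, 2327, 2109.9 and 2065 against 2389, 2646, 2979.8 and 2541. Its groups did not overlap, and the log2 fold change was −0.27 (−0.45 to −0.08, adjusted p = 0.0574).

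Of 15 negative regulators and nucleases, 2 passed the call, both lower in Prmt5-null, beside 2.99% of genes called lower. Dnase2a, the lysosomal enzyme that digests engulfed DNA, had 1417, 1461, 1302 and 1223 in Prmt5-null and 1983, 2055, 2301 and 2052 in control libraries. The groups did not overlap, and the log2 fold change was −0.64 ± 0.09 (limma, adjusted p = 6.4e-04). Mast1, on the opposite strand over 1616 of its 5389 exonic bases, had 2.04 to 5.56 normalized counts in Prmt5-null and 4.31 to 11.8 in control libraries. Rnaseh2c, a subunit of the RNase H2 complex that removes ribonucleotides from DNA, had 699, 472, 718 and 479 against 1372, 1570.02, 1476 and 1209.9. It fell furthest of the related genes, with a log2 fold change of −1.27 ± 0.15 (limma, adjusted p = 3.3e-04). Its exons share 426 of 1715 bases with Kat5 on the opposite strand. Whether reads in those bases were assigned by strand is not given in the sources used here. Kat5 as a whole had a log2 fold change of −0.01.

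On the list of other interferon-stimulated genes, 7 of 62 tested passed the call, beside 6.48% of genes. Gbp5 was the 1 that rose (beside 3.49% of genes), and 6 fell (beside 2.99%). Those that fell were Cxcl10 (−0.99), a chemokine, Shisa5 (−0.73), Rnf213 (−0.68), Helz2 (−0.64), B2m (−0.63), the light chain of MHC class I, and Psmb9 (−0.59), an immunoproteasome subunit. B2m and Psmb9 lie outside the limit of 5 genes set for this list and are named after their values were seen. Cxcl10 had 22.2, 32.7, 43.3 and 31.8 in Prmt5-null and 66.8, 75.8, 52.0 and 62.8 in control libraries, with no overlap. Its adjusted p was 0.02 by limma, and it was above 0.05 without Prmt5-null library PRMT5-10771, control library CTRL-10650 or control library CTRL-10370 (0.0514 to 0.0612). Helz2, a helicase and co-activator, had 6871 to 10239 against 12517 to 14030.1, and Shisa5 had 9494 to 12235 against 15203 to 19084. Both were apart between the genotypes. The change was below 1.5-fold, which ended the call, for Rnf213, Helz2 and Psmb9 without PRMT5-10617, for Helz2 without PRMT5-10770, for B2m and Psmb9 without CTRL-10650, and for Psmb9 without PRMT5-10771 or CTRL-10370 (−0.58 to −0.52 on the log2 scale).

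In all, 10 of 106 related genes tested passed the call (9.43%, beside 6.48% of genes). Of these 106, 1 was called higher (0.943%, beside 3.49% of genes) and 9 were called lower (8.49%, beside 2.99%). The median log2 fold change of the related genes was −0.06, beside 0.00 for all genes tested.

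Splicing was read from the study's tables of alternative events, which list only events that the authors selected, as inclusion levels in 4 Prmt5-null and 4 control libraries that are not named. Which levels belong to which genotype was inferred from the study's legend. Of the 40 members, 2 had an event (5%, beside 11.4% of the 13300 genes with a mean above 50), and both had at least 20 reads behind each level (7.71% of genes had such an event). Of 103 related genes with a mean above 50, 23 had one (22.3%). Members with an event are described by the authors' values, with no test, and their selection used these libraries.

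Irf1 had a pair of mutually exclusive exons at chr11:53771284-53771375 and chr11:53772839-53772938 (GRCm38, + strand). The inclusion levels were 0.507, 0.598, 0.49 and 0.561 in control and 0.417, 0.512, 0.378 and 0.435 in Prmt5-null libraries. Levels overlapped between the genotypes, with means of 0.539 and 0.436 and at least 134 reads behind each level. Xaf1, which encodes an interferon-induced factor linked to cell death, had a skipped exon of 196 bases at chr11:72304666-72304861. Its inclusion levels were 0.85, 0.665, 0.913 and 0.723 in control and 1, 0.795, 0.927 and 0.883 in Prmt5-null libraries, which overlapped, with at least 31 reads behind each. The gene had 173, 229, 243 and 234 normalized counts in Prmt5-null and 258, 458, 255 and 224 in control libraries, with control library CTRL-10370 highest. Its log2 fold change was −0.39 (−0.85 to 0.06, adjusted p = 0.238).

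None of the 6 sensors, Adar, Eif2ak2, the Oas and Oasl members, Herc6, Gbp2 or Gbp3 had an event in these tables. The absence of an event from the tables says only that the authors did not select one.

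Several genes around the members did. Irf3 had a retained intron of 98 bases at chr7:45000547-45000644, with levels of 0.204, 0.24, 0.332 and 0.364 in control and 0.447, 0.603, 0.4 and 0.452 in Prmt5-null libraries. The levels were apart, all 4 Prmt5-null values being higher. Dnase2a had a skipped exon of 165 bases at chr8:84909526-84909690, with levels of 0.972, 0.965, 0.936 and 0.969 against 0.746, 0.621, 0.692 and 0.636. Here all Prmt5-null levels were lower, in a gene that also fell in expression.

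Skiv2l, the helicase of the cytoplasmic RNA exosome, had a retained intron with levels of 0.163, 0.261, 0.204 and 0.179 in control and 0.496, 0.464, 0.407 and 0.522 in Prmt5-null libraries. Gbp9 had one with 0.223, 0.306, 0.356 and 0.422 against 0.551, 0.667, 0.438 and 0.602. Both were apart, and mean retention was higher in Prmt5-null for all 7 retained introns of the related genes, beside 86.9% of the 337 in the tables. Levels were apart for 6 of the 7, and the share of the 337 with levels apart is not given here. For the intron of Phf11d they overlapped, with as few as 1 read in a library. Over events of all types, 20 of 103 related genes had levels apart (19.4%, beside 6.11% of genes with a mean above 50). Uba7, which activates ISG15 for transfer, had the largest difference among the 7 introns, with 0.155, 0.294, 0.286 and 0.311 against 0.665, 0.727, 0.587 and 0.688.

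**Figure D5:**
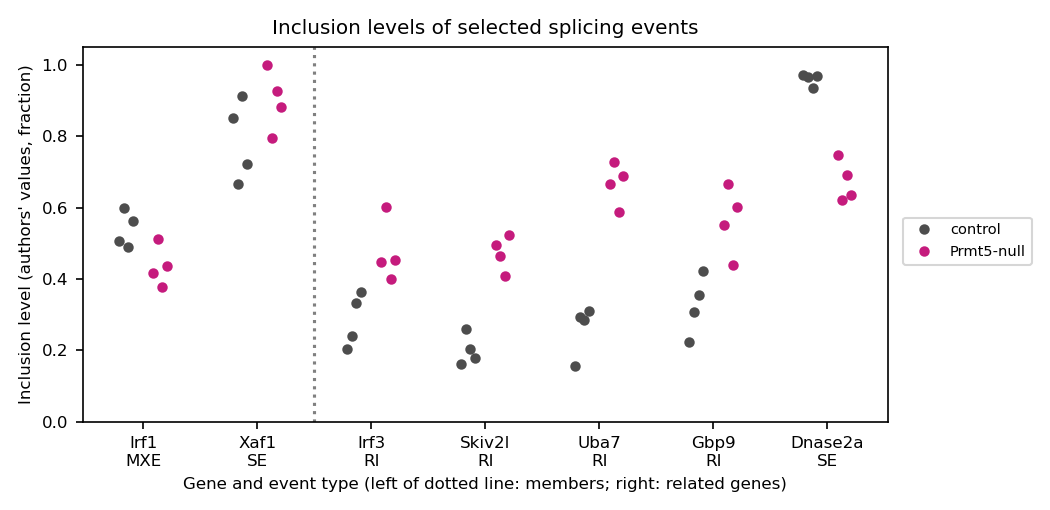
Inclusion levels (y axis, fraction, authors' values) of the 2 members with a listed event and of 5 events of related genes, chosen after their values were seen, in control and Prmt5-null libraries. MXE is mutually exclusive exons, SE skipped exon and RI retained intron; levels overlap for Irf1 and Xaf1 and are apart for the 5 related events.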

How the data were processed

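RNA-seq libraries of 4 Prmt5-null and 4 control mice were compared. The authors trimmed reads with Trimmomatic 0.32, aligned them to mm10 (GRCm38) with STAR 2.3.0e, used featureCounts 1.4.4 to count reads with a single mapping over the exons of each Ensembl gene and divided the counts by DESeq2 size factors. The deposited values are this normalized signal. All of them (100%, within 0.01 reads) were whole multiples of the worth of 1 read in their library, which gave back the reads and a depth of 36731721 to 50366174 per library. The deposited splicing tables, from rMATS, hold inclusion levels and read counts, with p-values, FDR values and differences of the authors that were not used. Their lists carry no genotype label. The first was read as control and the second as Prmt5-null, inferred from the study's legend, which gives the difference as WT against KO. The 4 levels per genotype name no library, so they carry no SD.

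The genotypes were compared with limma 3.58.1 in R 4.3.3 (lmFit, eBayes with a trend) on log2(normalized count + 1) over 16250 genes with a mean of at least 10, with Benjamini-Hochberg adjustment over these genes. A fold change is on this scale. Genes were called at an adjusted p below 0.05 and at least 1.5-fold. edgeR 4.0.16 and DESeq2 1.42.0 on the recovered reads called 1091 and 1277 genes, and limma 1053. limma was also tried on simulated counts of 16175 genes for this comparison, all given the same dispersion. Recovery was judged at an adjusted p below 0.05, with no threshold on the fold. It recovered 38 of 50 genes changed 1.5-fold and 45 of 50 changed 2-fold, with 6 false calls. The members varied more than all genes tested (median log2 SD 0.29 beside 0.16 in control libraries), so these counts do not give the power for the members. The dispersion was a fixed value that was not estimated from these libraries, so the counts do not give the power for genes in general either. Other alternatives were pseudocounts, filters, scalings, thresholds and leaving out each library. Lengths and positions came from GENCODE M21. The members and the lists of related genes were chosen with earlier results of these data known, so counts are set beside those of all genes and no list was tested. Members named with values are those past the adjusted p, the 3 highest and the lowest in level, the sensors and factors, and those with a splicing event, and a few others were added after their values were seen; of related lists, called genes up to 5 per list, and Ifnar1, Ifnar2, Irf3 and Mb21d1. One further gene that the rule names is not reported here. Ebf1, in 2 rows, and 4 symbols without a row (Ifna15, Ifna16, Ifit3b and Adgre1) were not used here. The p-values measure the spread between mice of a genotype, which includes any difference between the 2 experiments, as no term for experiment was fitted. Counting limits cover counting error only.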

Additional observations from a re-analysis of the deposited data

Results flagged for a closer look

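The 40 members and Prmt5 were searched in each genotype for a library far from the other 3, by Dixon's ratio of the gap to the range (above its 95% critical value for 4 libraries). Of 82 groups, 8 stood out, where chance gives about 1 in 20, or 4.1. All 8 came from 3 libraries.

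Control library CTRL-10370 was highest for Dhx58 (4925 normalized counts, the others at 2973 to 3117), Oas1a (571, the others at 269 to 296) and Xaf1 (458, the others at 224 to 258). It was also the highest library for 25 of the 40 members.

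Prmt5-null library PRMT5-10770 was highest for Oas1a (512, the others at 301 to 319) and Parp9 (6740, the others at 4993 to 5182), and lowest for Mavs (946, the others at 1134 to 1166).

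Prmt5-null library PRMT5-10617 was lowest for Gbp3 (3111, the others at 3875 to 4012) and Mx2 (106, the others at 165 to 170).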

How the results depend on the processing

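With no threshold on the fold, the count of members called rose from 3 to 7 and that of related genes from 10 to 16. These were 17.5% and 15.1%, beside 13.8% of all genes tested. The count of members with a splicing event fell from 2 to 0 when a difference in mean inclusion level of at least 0.25 was asked for. Of the 13300 genes with a mean above 50, 2.69% had such an event. The count was also 0 when levels had to be apart between the genotypes, beside 6.11% of these genes. Both settings keep fewer events. Leaving out each library in turn gave 2 to 3 members called, 7 to 12 related genes called, a median log2 fold change of the members of −0.23 to −0.06 and a Prmt5 log2 fold change of −3.12 to −2.81. Herc6 was not called without Prmt5-null library PRMT5-10617 or control library CTRL-10370. Leaving out Gbp2 and Gbp3, an alternative chosen after seeing the data, gave a median of −0.20. Under pseudocounts, filters, scalings, no trend, edgeR and a stricter adjusted p, Gbp2, Gbp3 and Herc6 were the members called, and DESeq2 added Cmpk2. Among the related genes, quantile normalization took Ticam1 and Psmb9 below 1.5-fold and added Mb21d1. No paired analysis was possible because the replicate labels are mouse numbers that the genotypes do not share. Depth limits the interferon ligands, at 6 reads or fewer.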

Other observations

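Beyond the events described above, several related genes had inclusion levels that were apart between the genotypes in the deposited tables (authors' values, not tested here, genes named after their values were seen). In all, 20 of 103 related genes had an event with levels apart (19.4%, beside 6.11% of genes with a mean above 50). Sp100, a component of PML nuclear bodies, had a skipped exon with levels of 0.869 to 0.915 in control and 0.626 to 0.730 in Prmt5-null libraries. Trafd1, a regulator of antiviral signalling, had a retained intron with 0.0800 to 0.220 against 0.256 to 0.456. Nlrc5, the transactivator of MHC class I genes, had an alternative 5′ splice site with 0.0770 to 0.118 against 0.183 to 0.324. Ifi203, of the PYHIN family of DNA-binding proteins, had a skipped exon with 0.384 to 0.457 against 0.168 to 0.290. Tank, an adaptor of the kinases that activate IRF3, had an alternative 3′ splice site with 0.890 to 0.901 against 0.734 to 0.870.

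Of 106 related genes tested, 16 passed the adjusted p (15.1%, beside 13.8% of genes). Of these 106, 4 were higher (3.77%, beside 6.51% of genes) and 12 lower (11.3%, beside 7.33%). Below the fold threshold were 6 of the 16, 3 higher and 3 lower in Prmt5-null. Ikbke, a kinase of IRF3 and IRF7, had a log2 fold change of 0.55 and Parp10, an ADP-ribosyltransferase, of 0.52. Nlrx1, a mitochondrial regulator of MAVS, had 0.49. Tyk2, a kinase of the interferon receptor, had −0.48, Ly6e, an interferon-stimulated surface protein, −0.46 and Trim30a, of the tripartite motif family, −0.55.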
